A study of Bos taurus with 36 samples.

Results

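Notch signalling was described through 10 of its genes in the hearts, gonads and livers of bovine fetuses and in the blood of their mothers. The 10 are the receptors NOTCH1, NOTCH2, NOTCH3 and NOTCH4, the ligands JAG1, JAG2, DLL1 and DLL4, and the target genes HES1 and HEY2. They were taken by symbol, and each was found as 1 of the 35092 genes of the count table. Notch receptors lie in the cell membrane and are activated by ligands on a neighbouring cell. Binding lets proteases free the intracellular part of the receptor, which enters the nucleus and, with the DNA-binding protein RBPJ, switches on repressors of the HES and HEY families. The pathway is known for setting arterial identity, for forming the valves and the trabeculae of the heart, and for segmenting the nephron and shaping the bile ducts.

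The fetuses were male, were recovered on Day 42 of gestation and numbered 10 in all. Embryos aged 7 days had been placed in heifers on Day 7 of the cycle (ET_D7, synchronous, 5 fetuses) or on Day 9 (ET_D9, asynchronous, 5 fetuses). Numbers 1 to 10 order the fetuses from the lightest, at 1.253 g, to the heaviest, at 1.69 g. All ET_D7 fetuses weighed 1.37 g or less and all ET_D9 fetuses 1.396 g or more, so that transfer group and weight cannot be told apart. RNA was sequenced from 9 hearts (without fetus 7), 9 gonads (without fetus 2), 8 livers (without fetuses 6 and 7) and the blood of all 10 heifers, with 1 library of each tissue per animal. Organ and blood libraries were made with different stranded kits, and levels were not compared between them.

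Total counts ran from 18231089 to 39649051 in the 26 organ libraries and from 26602415 to 40812354 in blood. The share of mitochondrial transcripts was 17.1% to 57.3% in hearts, 16.3% to 36.8% in livers and 3.31% to 7.23% in gonads. The libraries labelled gonads, a fetal testicle in the submitters' words, lacked defining markers of that label. Of the defining markers of Sertoli and germ cells, GATA4 reached at most 0.121 CPM, DDX4 0.258 CPM and DAZL 0.0722 CPM in them. Others of these lists were present, with WT1 at 88.5 to 166 CPM, CLDN11 at 7.29 to 13.5 CPM and KIT at 16.5 to 32.9 CPM. SRY, also listed for Sertoli cells, was not matched. Of the 8 matched markers of each type, 6 of Sertoli cells and 2 of germ cells had at least 10 counts in each of these libraries. All 8 markers of the mesonephros and nephron, the embryonic kidney beside the gonad, did so, with a summed level of 388 to 505 CPM. PAX2 alone held 103 to 138 CPM, whereas CDH16 of the same list held 2.68 to 5.76 CPM, against 97.4 to 253 CPM in the liver. The name gonads is kept below only as the label. In 3 liver libraries, of fetuses 3, 4 and 5, the 8 cardiomyocyte markers summed to 4438, 2306 and 788 CPM, against 24.6 to 155 CPM in the other 5. MYL2 reached 2408 CPM and ACTC1 1884 CPM in the liver, whereas TNNT2 reached 34.4 CPM in the liver against 5553 to 14900 CPM in the heart. In blood, these markers summed to 3871 CPM in the heifer of fetus 2 and 1369 CPM in that of fetus 5, and to at most 20.4 CPM in the rest. The organ and transfer group comparisons, the weight fit in blood and the spread between animals are given with and without these libraries where the call or count changed. Liver relations with weight, for which 5 livers would be left, and the closest genes were computed with them only.

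The unit CPM stands for a gene's counts relative to the size of its library, corrected for composition by TMM, edgeR's scaling, over the 26 organ libraries. They serve to compare 1 gene between organs and not genes with one another, since CPM takes no account of transcript length. The organs were compared in 1 fit of edgeR's quasi-likelihood test over 25095 genes with at least 1 organ count. A gene was called at a Benjamini-Hochberg adjusted p under 0.05. In whole organs, fewer cells of a type and less RNA per cell cannot be told apart.

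The heart had the highest level of 7 of the 10 members against both other organs, namely NOTCH1, NOTCH4, JAG1, JAG2, DLL4, HES1 and HEY2. The libraries labelled gonads had the highest level of 2, NOTCH2 and NOTCH3, and the liver of none. The same test against both remaining organs was passed by 11.1% (heart), 14.9% (gonads) and 23.1% (liver) of all genes. Between heart and gonads, 7 members were higher and 2 lower in the heart, against 23.5% and 23.1% of all genes (46.6% called in either direction). Against the liver, all 10 were higher in the heart, as were 27.9% of all genes, with 30.7% lower and 58.6% called. Between gonads and liver, 8 were higher and 2 lower in the gonads, against 30.8% and 33.6% of all genes and 64.4% called. The median log2 fold change of the members was 0.996 for heart over gonads, 1.73 for heart over liver and 1.60 for gonads over liver. Over all genes it was −0.08, 0.0 and 0.0.

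Against the gonads, the sizes, the calls and some of the directions depended on the scaling. With library totals in place of TMM, an alternative chosen after seeing the data, the median over all genes moved to −1.07 for heart over gonads and 0.91 for gonads over liver. Of all genes called between heart and gonads, 2089 were then higher and 12672 lower in the heart, against 5898 and 5788 with TMM. The split between gonads and liver became 11960 higher and 4810 lower in the gonads, against 7718 and 8435. Only NOTCH4 and HEY2 were then called highest in the heart, and NOTCH2, NOTCH3, DLL1 and HES1 in the gonads. The share of all genes highest in each organ was not computed under this scaling, so these calls cannot be set against it. Measured from the median over all genes, each member kept its sign in all 3 comparisons. A change of scaling moves the members and this median by about the same amount, so the kept signs are no separate support for a direction. Between heart and liver the median was 0.0 under both scalings, and all 10 members stayed higher in the heart.

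**Figure D1:**
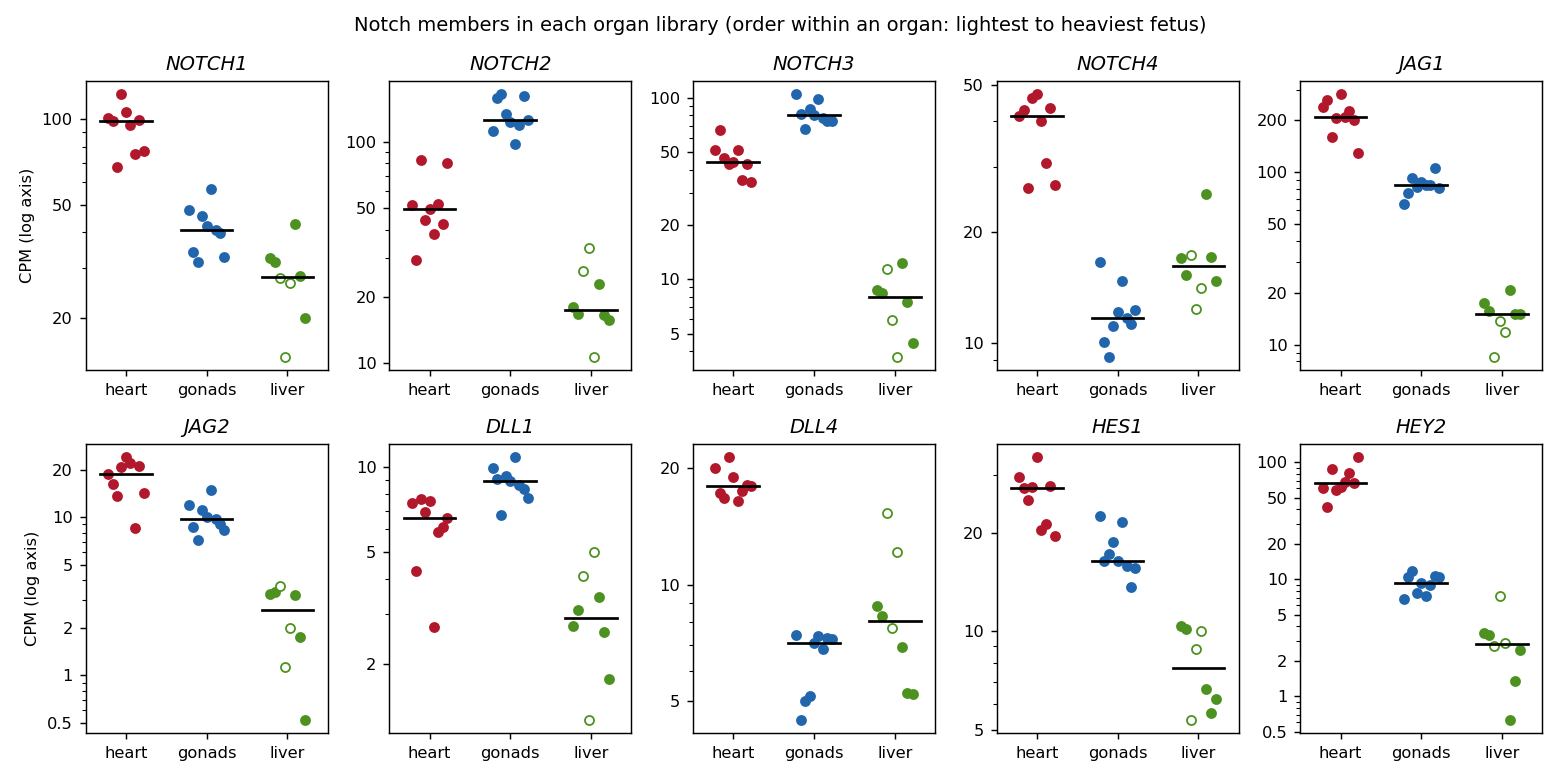
CPM of each member (log axis) in every heart, gonad and liver library, in order of fetal weight within an organ, with black bars at the medians. Open circles are the liver libraries of fetuses 3, 4 and 5. For HEY2, the 9 heart libraries lie between 41.7 and 112 CPM, above all gonad and liver libraries.

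Of the receptors, NOTCH1 (Entrez gene counts of 206 to 2944 in the organ libraries), the receptor most widely used in blood vessels and endocardium, was highest in the heart. It ranged there from 68.2 CPM in fetus 3 through a median of 98.6 to 123 CPM in fetus 4. The gonads held 31.5 to 56.7 CPM (median 40.7) and the liver 14.5 to 42.8 CPM (median 27.8). All heart libraries lay above all others, whereas gonads and liver overlapped. The log2 fold change of NOTCH1 was 1.19 for heart over gonads (SE 0.156, adjusted p = 3.02e-07, edgeR) and 1.75 for heart over liver (SE 0.166, adjusted p = 3.81e-10, edgeR). For gonads over liver it was 0.56 (SE 0.161, adjusted p = 0.00349, edgeR). With library totals, the difference between heart and gonads was 0.10 and was no longer called (adjusted p = 0.593, edgeR).

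NOTCH4, the receptor largely restricted to endothelium, was also highest in the heart, at 26.3 to 47.3 CPM (median 41.4). It lay between 12.3 and 25.3 CPM in the liver (median 16.2) and between 9.17 and 16.6 CPM in the gonads (median 11.7). The heart did not overlap with either organ, while the other two overlapped. Its log2 fold change was 1.66 for heart over gonads (SE 0.149, adjusted p = 2.29e-10, edgeR) and 1.20 for heart over liver (SE 0.153, adjusted p = 1.03e-07, edgeR). NOTCH4 and DLL4 were the members lower in the gonads than in the liver, NOTCH4 by −0.46 (SE 0.150, adjusted p = 0.00913, edgeR). With library totals this difference turned to 0.58.

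NOTCH2, the receptor used in nephron segmentation and bile duct formation, had its highest levels in the libraries labelled gonads, from 97.8 to 163 CPM (median 125). The heart held 29.1 to 82.9 CPM (median 49.4) and the liver 10.7 to 33.2 CPM (median 17.3). The gonads overlapped with neither, whereas the lowest heart library, of fetus 2, fell below the highest liver library, of fetus 4. NOTCH2 was lower in heart than gonads by a log2 fold change of −1.34 (SE 0.192, adjusted p = 1.24e-06, edgeR), and higher in heart than liver by 1.39 (SE 0.202, adjusted p = 9.76e-07, edgeR). Gonads exceeded liver by 2.73 (SE 0.212, adjusted p = 5.21e-12, edgeR).

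NOTCH3, a receptor of pericytes and vascular smooth muscle, followed the same order as NOTCH2. It held 67.2 to 105 CPM in the gonads (median 80.5), 34.3 to 66.6 CPM in the heart (median 44.3) and 3.71 to 12.2 CPM in the liver (median 7.92). The 3 ranges did not overlap. The log2 fold change was −0.84 for heart over gonads (SE 0.173, adjusted p = 0.000177, edgeR), 2.57 for heart over liver (SE 0.193, adjusted p = 2.76e-12, edgeR) and 3.41 for gonads over liver (SE 0.200, adjusted p = 1.11e-14, edgeR). The other 7 mural cell markers summed to 641 to 832 CPM in the heart, 129 to 162 CPM in the gonads and 191 to 309 CPM in the liver. Against the liver, the lower sum in the gonads came from ACTA2 and PDGFRB. The median of the other 5, RGS5, CSPG4, TAGLN, KCNJ8 and MYH11, was higher in the gonads than in the liver. The part of mural cells in the NOTCH3 levels was not tested.

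**Figure D2:**
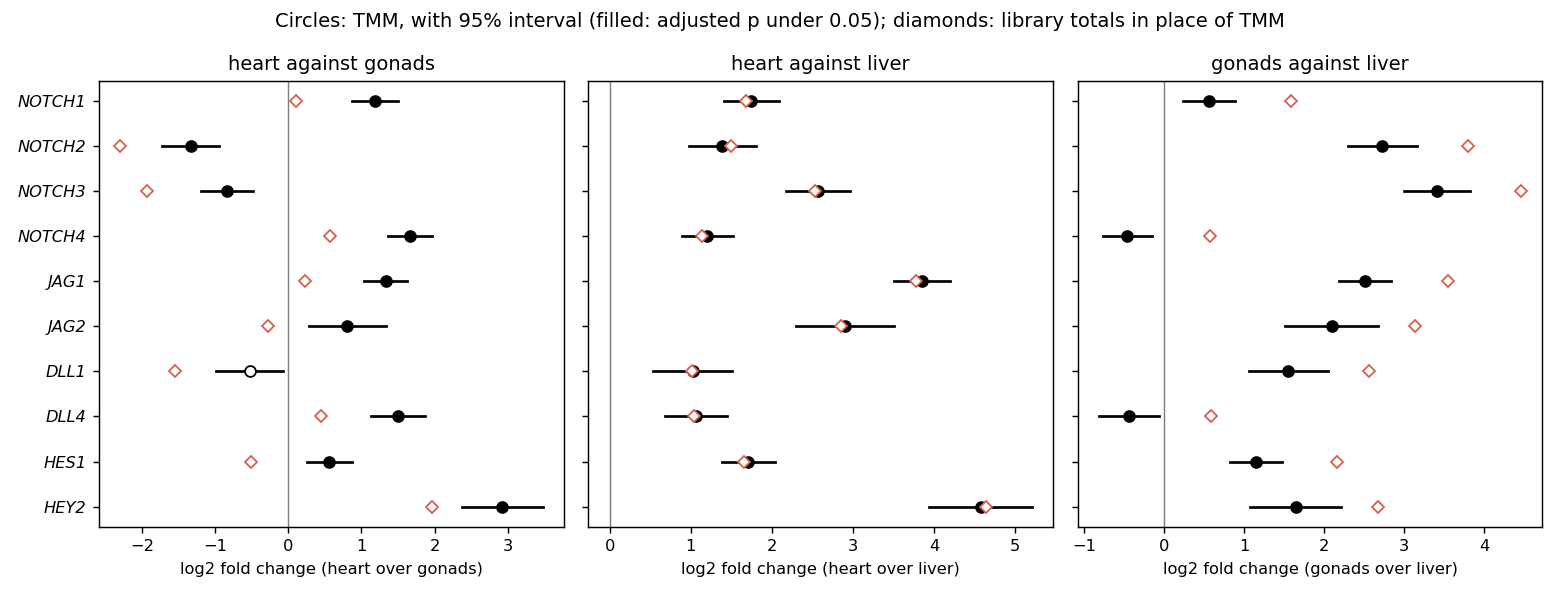
Log2 fold change of each member in the 3 organ comparisons, with 95% intervals (black; filled where adjusted p was under 0.05), and the same value with library totals in place of TMM (open diamonds). Diamonds shift by about the same amount for all members against the gonads, from 1.19 to 0.10 for NOTCH1 in heart over gonads, and hardly at all between heart and liver.

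Of the ligands, JAG1, which marks endocardium, arteries and the developing nephron, had the largest difference between heart and liver. Its heart levels ran from 129 CPM in fetus 10 to 283 CPM in fetus 5 (median 208). The gonads held 65.8 to 106 CPM (median 84.4) and the liver 8.48 to 20.7 CPM (median 15.1), and no range overlapped with another. The heart exceeded the liver by a log2 fold change of 3.85 (SE 0.167, adjusted p = 1.58e-17, edgeR), a 14.4-fold difference. It was 1.33 for heart over gonads (SE 0.143, adjusted p = 7.95e-09, edgeR) and 2.51 for gonads over liver (SE 0.157, adjusted p = 4.80e-14, edgeR). With library totals, heart over gonads fell to 0.23 and was no longer called (adjusted p = 0.127, edgeR).

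JAG2, the other Jagged ligand, followed the same order at 8.51 to 24.1 CPM in the heart (median 18.8), 7.16 to 14.97 CPM in the gonads (median 9.69) and 0.523 to 3.65 CPM in the liver (median 2.60). The hearts of fetuses 8, 3 and 10, at 8.51, 13.6 and 14.1 CPM, lay within the gonad range. Heart over gonads was 0.81 on the log2 scale (SE 0.258, adjusted p = 0.0115, edgeR), but −0.28 with library totals. Against the liver, the heart was higher by 2.90 (SE 0.292, adjusted p = 1.25e-09, edgeR) and the gonads by 2.10 (SE 0.283, adjusted p = 2.42e-07, edgeR).

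DLL4, the ligand of arterial and sprouting endothelium, had with TMM the smallest spread of any member in the heart, from 16.4 to 21.4 CPM (median 17.98). Its spread with library totals is not given here. The hearts of fetuses 2 and 10 held 288 and 543 counts of DLL4, of total counts of 32429930 and 29394494. The liver held 5.23 to 15.4 CPM (median 8.04) and the gonads 4.48 to 7.43 CPM (median 7.07). The heart lay above both without overlap, by a log2 fold change of 1.504 over the gonads (SE 0.181, adjusted p = 6.17e-08, edgeR) and 1.06 over the liver (SE 0.186, adjusted p = 1.71e-05, edgeR). With library totals, heart over gonads was 0.45 and missed the threshold (adjusted p = 0.0524, edgeR). Gonads were lower than liver by −0.44 (SE 0.183, adjusted p = 0.0373, edgeR), a difference that rested on a few libraries. With the animal as a replicate block it was −0.43 (adjusted p = 0.130, edgeR), and without the livers of fetuses 3, 4 and 5 it was −0.10 (adjusted p = 0.582, edgeR). It also missed the threshold without the liver of fetus 3 (−0.28) or fetus 5 (−0.36) alone, and without the gonads of fetus 3 (−0.39), fetus 4 (−0.40) or fetus 5 (−0.40). With library totals it turned to 0.59.

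DLL1, a ligand used in somites and in neural and pancreatic progenitors, had low levels in all 3 organs, with medians of 6.59 CPM in the heart, 8.94 CPM in the gonads and 2.92 CPM in the liver. The heart ranged from 2.71 CPM in fetus 6 to 7.67 CPM in fetus 3, the gonads from 6.77 to 10.8 CPM and the liver from 1.27 to 4.98 CPM. Gonads and liver did not overlap. DLL1 was the one member not called between heart and gonads (log2 fold change −0.53, SE 0.225, 95% interval −0.99 to −0.07, adjusted p = 0.0557, edgeR). Several other settings called this difference, DESeq2 among them (adjusted p = 0.0191). It was also called without the livers of fetuses 3, 4 and 5 (−0.53, adjusted p = 0.0156, edgeR), where DLL1 joined NOTCH2 and NOTCH3 as highest in the gonads. The heart exceeded the liver by 1.02 (SE 0.238, adjusted p = 0.000559, edgeR) and the gonads exceeded it by 1.55 (SE 0.240, adjusted p = 2.37e-06, edgeR).

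Of the target genes, HEY2, a transcriptional repressor found in ventricular muscle and arterial endothelium, separated the heart most widely. Heart levels were 60.9, 41.7, 87.3, 58.1, 61.4, 68.5, 80.6, 66.8 and 112 CPM in fetuses 1, 2, 3, 4, 5, 6, 8, 9 and 10. The gonads held 6.83 to 11.7 CPM (median 9.33) and the liver 0.632 to 7.20 CPM (median 2.79). The lowest heart was thus above the highest gonad, while gonads and liver overlapped through the liver of fetus 4, the next highest liver being at 3.47 CPM. That library is one of the 3 with raised cardiomyocyte markers, whose part in its HEY2 level was not tested. Heart over gonads reached 2.93 on the log2 scale (SE 0.268, adjusted p = 3.63e-10, edgeR), or 7.62-fold, and 4.57 for heart over liver (SE 0.309, adjusted p = 2.85e-13, edgeR), or 23.8-fold. Gonads exceeded liver by 1.64 (SE 0.277, adjusted p = 8.37e-06, edgeR). With library totals, heart over gonads was still called at 1.96.

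HES1, a repressor induced by Notch in many tissues, differed less. It ran from 19.5 to 34.2 CPM in the heart (median 27.5), from 13.7 to 22.5 CPM in the gonads (median 16.4) and from 5.36 to 10.4 CPM in the liver (median 7.74). Heart and gonads overlapped, and the liver lay below both. The log2 fold change was 0.56 for heart over gonads (SE 0.150, adjusted p = 0.00283, edgeR), which reversed to −0.51 with library totals and was called in that direction (adjusted p = 0.00865, edgeR). It was 1.71 for heart over liver (SE 0.161, adjusted p = 3.28e-10, edgeR) and 1.15 for gonads over liver (SE 0.158, adjusted p = 3.40e-07, edgeR).

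Counted over the members, the ranges did not overlap for 7 of 10 between heart and gonads, 8 of 10 between heart and liver and 6 of 10 between gonads and liver. Over all genes this was so for 23.1%, 25.8% and 31.1%. The summed levels of vessel markers were highest in the heart and lowest in the liver. The 10 endothelial markers summed to 561 to 792 CPM in the heart, 259 to 302 CPM in the gonads and 143 to 190 CPM in the liver. The 5 arterial markers gave 358 to 477, 132 to 162 and 24.5 to 52.1 CPM. NOTCH1, JAG1, JAG2, HES1 and HEY2 had this order of organs, whereas NOTCH2, NOTCH3 and DLL1 had their highest mean in the gonads, and NOTCH4 and DLL4 were lower in the gonads than in the liver. Within the lists, 3 endothelial markers (ERG, CLDN5 and EGFL7) and 2 arterial markers (GJA5 and GJA4) likewise had a lower median in the gonads than in the liver. SOX17, an arterial transcription factor, was low throughout, with medians of 1.44 CPM in the heart and 1.10 CPM in the gonads, and 0 in the liver. The part of the vessel markers in the differences between organs was not tested.

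The remaining genes of the pathway were taken from a list of 56, sorted by role. Between heart and gonads, 15 of 56 were higher in the heart, 21 lower and 20 not called, against 23.5% higher and 23.1% lower over all genes. The median log2 fold change of the 56 was −0.25. Of the 9 genes of the nuclear transcription complex, 7 were lower in the heart and none higher, among them RBPJ, the DNA-binding partner of the receptors (−0.81, SE 0.142, adjusted p = 2.47e-05, edgeR). Of the 9 proteolysis genes, which cut the receptors, 4 were higher in the heart and 1 lower. PSENEN, a subunit of the γ-secretase that frees the intracellular part, was higher by 1.94 (SE 0.153, adjusted p = 1.73e-11, edgeR). MFNG, a fringe enzyme that glycosylates the receptors, was higher by 2.41 (SE 0.288, adjusted p = 5.70e-08, edgeR), and DLK2, a ligand-like protein, by 2.49 from a mean of 0.141 CPM in the gonads. Lower in the heart were DLK1, an imprinted inhibitory ligand (−3.70, SE 0.179, adjusted p = 4.63e-16, edgeR), the receptor glucosyltransferase POGLUT1 (−2.48) and the corepressor TLE4 (−1.82).

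Against the liver, 26 of the 56 were higher in the heart, 12 lower and 18 not called, with a median of 0.52, against 27.9% higher and 30.7% lower over all genes. For gonads over liver the counts were 34, 11 and 11, with a median of 0.70, against 30.8% and 33.6%. Proteolysis genes were higher in the heart than in the liver for 8 of 9, and transcription complex genes higher in the gonads than in the liver for 7 of 9. DTX3 and DTX4, E3 ligases of the Deltex family that act in Notch turnover, were higher in both organs than in the liver. For heart over liver the log2 fold change was 3.92 for DTX3 (SE 0.288, adjusted p = 1.74e-12, edgeR) and 3.30 for DTX4. For gonads over liver it was 3.95 and 4.81. HES5, another target gene, had 0 counts in all livers and means of 0.479 CPM in the heart and 0.179 CPM in the gonads. Higher in the liver were DLK1, at a mean of 1026 CPM against 29.7 CPM in the heart (−5.11, SE 0.193, adjusted p = 8.60e-19, edgeR), TLE1 (−1.63) and the corepressor CIR1 (−1.38). Against the gonads, the liver had more of the protease FURIN, which matures the receptors (−2.56, SE 0.134, adjusted p = 9.80e-16, edgeR), of MFNG (−2.48) and of CIR1 (−2.13).

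The spread between fetuses was given as the coefficient of variation of CPM (the SD as a percentage of the mean), beside the median over all genes with at least 10 counts in 4 libraries. These values are with TMM, and the spread with library totals is not given here. In the heart, members varied by 8.83% (DLL4) to 34.5% (NOTCH2), and 4 of 10 were above the median gene at 24.4%. In the gonads they varied by 13.2% (JAG1) to 22.9% (JAG2), with 1 of 10 above the median of 21.0%. In the liver they varied by 23.4% (NOTCH4) to 64.9% (HEY2), with 6 of 10 above the median of 31.7%. Without the livers of fetuses 3, 4 and 5 the range was 14.2% (JAG1) to 55.0% (HEY2), with 5 of 10 above the median of 26.7%. In blood, 9 members could be given, from 11.3% (NOTCH2) to 113% (HEY2), and 6 were above the median of 20.03%. Without the heifers of fetuses 2 and 5 the range was 12.7% (NOTCH2) to 129% (HEY2), with 7 of 9 above the median of 19.4%. In the heart, NOTCH2 and HEY2 were both highest in fetuses 3 and 10. NOTCH2 held 82.9 and 79.998 CPM there and at most 52.3 CPM in the other 7. With TMM, NOTCH1 and NOTCH4 were among their lowest in the same libraries, but their order over the hearts depended on the scaling. For NOTCH1, Pearson's r with weight over the 9 hearts was −0.36 with TMM and 0.60 with library totals. For NOTCH4 it was −0.40 and 0.48. The mitochondrial share was 23.5% in the heart of fetus 3, 25.5% in fetus 8 and 17.1% in fetus 10, and 28.5% to 57.3% in the others. Its part in these levels was not tested.

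Whether the members varied with fetal weight was tested per tissue with a natural spline of 3 degrees of freedom (edgeR's quasi-likelihood test over 16250 heart, 17809 gonad, 16605 liver and 16284 blood genes). No member was called in any tissue. The lowest adjusted p of a member was 0.693 for heart, 0.419 for gonads, 0.227 for liver and 0.457 for blood (edgeR). The share of all genes called was 0.0% for heart and 0.0% for gonads, with 1.81% for liver and 0.129% for blood. At an unadjusted p under 0.05 there were 0 members in the heart and in the gonads, 2 in the liver (DLL4 and HEY2) and 2 in blood (NOTCH1 and NOTCH3), against 7.99%, 12.6%, 17.9% and 9.77% of all genes. DESeq2 called no member either. Of the other pathway genes, DTX3L was called in blood (adjusted p = 0.0363, edgeR), and no other in any tissue. Without the heifers of fetuses 2 and 5, no gene of all those tested in blood was called, DTX3L included, against 21 with them.

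Pearson correlations of log2 CPM with weight gave 39 relations, DLL4 in blood being left out for its low counts. None passed after adjustment over the 39, the lowest adjusted p being 0.423 by permutation. In the heart, NOTCH3 had the strongest, with r = −0.75 (n = 9, exact permutation p = 0.0161, adjusted p = 0.423) and Spearman's rho = −0.85 (exact permutation p = 0.00607, adjusted p = 0.237). It fell by 0.14 on the log2 scale per 0.1 g in a linear edgeR fit (SE 0.0492, adjusted p = 0.0933). Levels of NOTCH3 were 51.8 and 66.6 CPM in the lightest 2 hearts and 43.0 and 34.3 CPM in the heaviest 2. With library totals, r was 0.03, and without the 2 fetuses farthest from the median weight it was −0.78 (n = 7, exact permutation p = 0.0629). HEY2 in the heart went the other way, with r = 0.64 (n = 9, exact permutation p = 0.0600, adjusted p = 0.423) and a slope of 0.16 per 0.1 g (SE 0.0619, adjusted p = 0.121, edgeR). Its r was 0.66 with library totals and 0.42 with the means of the transfer groups removed.

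**Figure D3:**
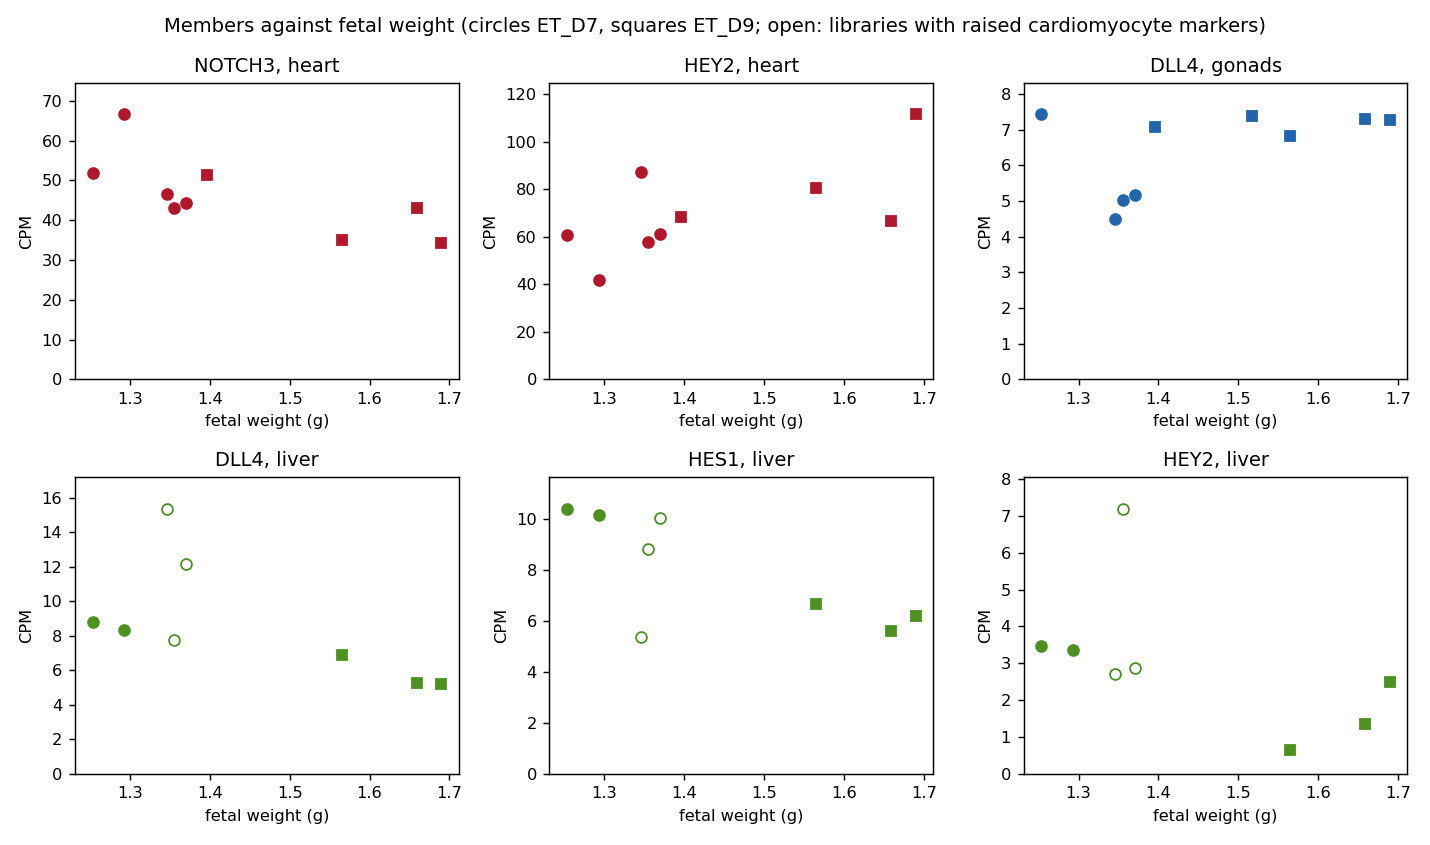
CPM against fetal weight for 6 pairs of member and organ, with ET_D7 as circles and ET_D9 as squares. In the liver, the 3 ET_D9 libraries hold 5.23 to 6.92 CPM of DLL4, below all 5 ET_D7 libraries, and the open circles are the livers of fetuses 3, 4 and 5.

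Between the transfer groups, no member was called in any tissue. The lowest adjusted p was 0.138 in the heart (HES1), 0.156 in the gonads (DLL4), 0.108 in the liver (DLL4) and 0.708 in blood (edgeR). Of all genes, 0.0492% were called for heart, 0.354% for gonads, 4.14% for liver and 0.0% for blood. At an unadjusted p under 0.05 there were 1, 1, 3 and 0 members, against 24.6%, 18.5%, 17.4% and 7.6% of all genes.

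The groups did not overlap for 2 of 10 members in the liver and for none in the heart or the gonads, against 14.2%, 9.74% and 7.64% of all genes. In the liver, DLL4 held 8.80, 8.33, 15.4, 7.76 and 12.2 CPM in the ET_D7 fetuses and 6.92, 5.26 and 5.23 CPM in the ET_D9 fetuses. All 3 ET_D9 values were lower than each ET_D7 value. ET_D9 over ET_D7 gave a log2 fold change of −0.99 (SE 0.298, 95% interval −1.65 to −0.32, adjusted p = 0.108, edgeR). DESeq2 called DLL4 at −0.96 (adjusted p = 0.0326), along with 1520 of 16586 genes in all. HEY2 did not overlap either, with 3.47, 3.35, 2.71, 7.20 and 2.87 CPM against 0.632, 1.35 and 2.48 CPM and a log2 fold change of −1.52 (SE 0.567, adjusted p = 0.199, edgeR). HES1 held 10.4, 10.1, 5.36, 8.82 and 10.0 CPM against 6.66, 5.61 and 6.21 CPM, and overlapped only through the liver of fetus 3 (−0.66, SE 0.263, adjusted p = 0.228, edgeR). Without the livers of fetuses 3, 4 and 5, which leaves 2 ET_D7 against 3 ET_D9 libraries, DLL4 (−0.61, adjusted p = 0.0350, edgeR) and HES1 (−0.78, adjusted p = 0.00975, edgeR) were called. That setting, chosen after seeing the data, called 20.1% of all genes, so that 2 of 10 members is the share of all genes.

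In the gonads, DLL4 was at 6.82 to 7.39 CPM in all 5 ET_D9 libraries and at 4.48, 5.02 and 5.16 CPM in the ET_D7 fetuses 3, 4 and 5. The remaining ET_D7 library, of fetus 1, had the highest level of all, 7.43 CPM. The log2 fold change was 0.41 (SE 0.134, 95% interval 0.11 to 0.70, adjusted p = 0.156, edgeR). Without fetus 1, the ET_D7 library that went against it, the value was 0.56 and was called (adjusted p = 0.0319, edgeR). This was the only 1 of 9 refits, each without 1 library, that called it. The share of all genes called in that refit is not given here. The opposite signs of DLL4 in gonads and liver were not tested against each other. In the heart, HES1 was lower in ET_D9 (−0.37, SE 0.137, adjusted p = 0.138, edgeR), with 19.5 to 27.8 CPM against 25.2 to 34.2 CPM. The group difference with library totals is not given here. Its r with weight in the heart moved from −0.52 with TMM to 0.29 with library totals.

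Of the other pathway genes, none was called between the transfer groups in any tissue. In the heart, 14 of 53 tested had an unadjusted p under 0.05, near the 24.6% of all genes. Between the groups, 5 of 53 did not overlap in the heart (MIB1, NEURL1B, ADAM17, MAML1 and HES6), 3 of 53 in the gonads (NCSTN, HES4 and HEYL) and 6 of 49 in the liver (POGLUT1, NEURL1B, CIR1, NUMBL, ITCH and DTX3). Over all genes this was so for 9.74%, 7.64% and 14.2%. A linear term for weight called 2 of the 53 in the heart, where it called 6.77% of all genes. These were HES6 (−0.78 per 0.1 g, SE 0.168, adjusted p = 0.0395, edgeR) and the coactivator MAML3 (−0.23, SE 0.0544, adjusted p = 0.0419, edgeR). With the transfer group in the model, no gene of all those tested was called.

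Members that could act together were compared across the fetuses of each organ in 5 pairs, 15 relations in all. By Pearson's r, 1 passed after adjustment, and by Spearman's rho a second, DLL4 with NOTCH4 in the gonads, passed as well. In the gonads, HEY2 was lower where NOTCH3 was higher, with r = −0.93 (n = 9, exact permutation p = 0.000124, adjusted p = 0.00186) and rho = −0.88 (exact permutation p = 0.00308, adjusted p = 0.0231). The gonads of fetuses 1 and 7 held 105 and 98.4 CPM of NOTCH3 with 6.83 and 7.25 CPM of HEY2, and that of fetus 4 held 67.2 CPM with 11.7 CPM. The value was −0.94 with the transfer group means removed (exact permutation p = 0.00104, adjusted p = 0.0156) and −0.90 with library totals. It ran from −0.97 to −0.90 on leaving out each fetus. Without the 2 fetuses farthest from the median of NOTCH3 it was −0.83 (n = 7, exact permutation p = 0.0206) and no longer passed (adjusted p = 0.310). Both genes come from the same libraries and share their scaling.

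**Figure D4:**
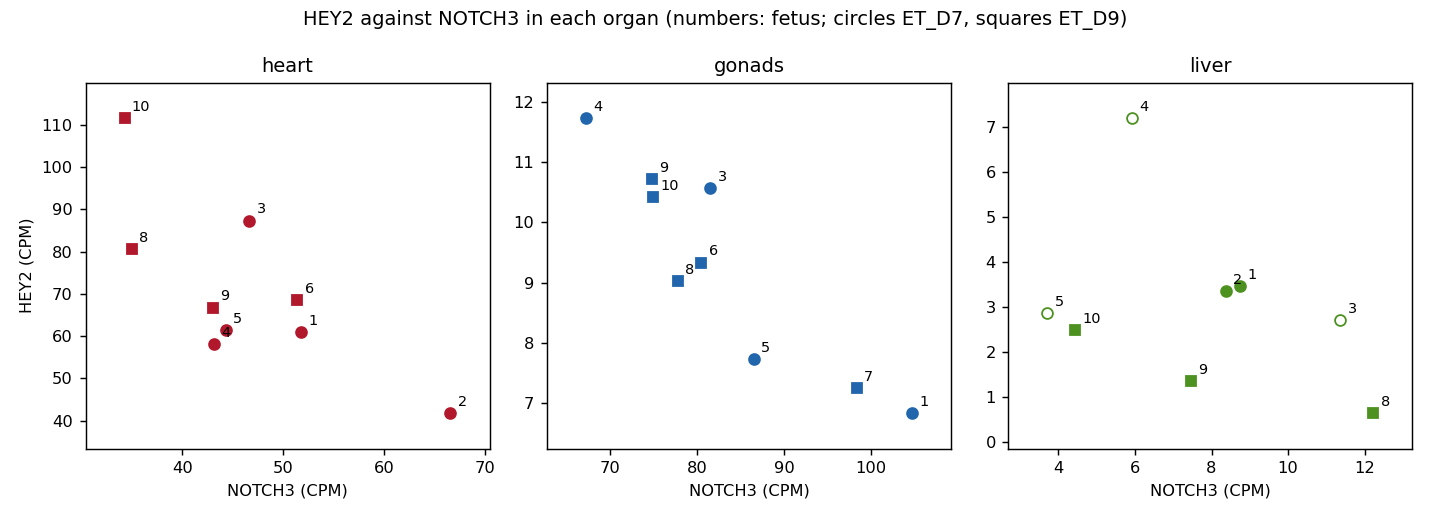
CPM of HEY2 against CPM of NOTCH3 in each organ, with the number of the fetus beside its point, ET_D7 as circles and ET_D9 as squares. In the gonads the points fall from fetus 4 (67.2 CPM of NOTCH3, 11.7 CPM of HEY2) to fetus 1 (105 and 6.83 CPM).

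In the heart the same pair had r = −0.80 (n = 9, exact permutation p = 0.0125, adjusted p = 0.0935), which turned to 0.46 with library totals and was −0.32 without the 2 farthest fetuses. In the liver it was −0.42 (n = 8, exact permutation p = 0.304, adjusted p = 0.489). DLL4 and NOTCH4, the endothelial ligand and receptor, gave r = 0.75 in the gonads (n = 9, exact permutation p = 0.0215, adjusted p = 0.1001) and rho = 0.88 (exact permutation p = 0.00308, adjusted p = 0.0231), r = 0.51 in the heart and r = −0.10 in the liver. JAG1 and NOTCH2 gave −0.72 in the heart (n = 9, exact permutation p = 0.0267, adjusted p = 0.1001), 0.46 in the gonads and −0.08 in the liver. Their heart value turned to 0.23 with library totals (exact permutation p = 0.557). NOTCH1 and HES1 gave 0.60, 0.66 and −0.02, and DLL4 and HEY2 gave −0.26, −0.37 and 0.31, for heart, gonad and liver libraries in turn. With library totals, DLL4 and HEY2 in the heart turned to r = 0.93 (n = 9, exact permutation p = 0.000422, adjusted p = 0.00316).

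The genes whose log2 CPM followed a member most closely over the 26 organ libraries were sought among 16116 genes with a mean of at least 1 CPM. The libraries share organ, fetus and depth, so that r is a description. NOTCH1 was followed by PPP1R13B and by TIE1, a receptor kinase of endothelium (both r = 0.98), and NOTCH4 by the calcium channel gene CACNA1H and by DYSF, which serves membrane repair in muscle (both 0.98). NOTCH2 was followed by AHI1 (0.98) and CLSTN1 (0.97), NOTCH3 by the receptor PTK7 and the actin-binding DBN1 (both 0.98), and JAG1 by PPFIA4 (0.99) and KANK2 (0.98). JAG2 was followed by AGRN, a proteoglycan of basement membranes (0.98), and POMGNT1 (0.97). DLL1 and DLL4 had the loosest, with KLHL17 (0.95) and CRAMP1 (0.93) for DLL1 and CERS4 (0.95) and CIB4 (0.94) for DLL4. HES1 went with DCUN1D2 and SLC41A1 (both 0.97), and HEY2 with ZNF106 and ACADSB (both 0.98). After the mean of each organ was removed, the closest were IGHMBP2 for NOTCH1 (0.94), HLF for NOTCH2 (0.88), COL6A1, a collagen VI chain, for NOTCH3 (0.89) and RGS11 for NOTCH4 (0.96). For the ligands they were LOC104975241 for JAG1 (0.79), NPR2 for JAG2 (0.92), KLHL17 for DLL1 (0.93) and GALNT10 for DLL4 (0.86). For the targets they were TBC1D10A for HES1 (0.88) and LOC100847374 for HEY2 (0.93).

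In maternal blood, scaled over its own 10 libraries, NOTCH2 and NOTCH1, receptors of lymphoid and myeloid cells, took most of the members' counts. NOTCH2 held 492.7 to 740 CPM (median 623; 14843 to 29366 counts) and NOTCH1 276 to 653 CPM (median 340; 7366 to 17346 counts). HES1 ran from 8.39 to 20.5 CPM (median 12.5), NOTCH4 from 7.44 to 14.1 CPM (median 10.7) and NOTCH3 from 5.77 to 12.2 CPM (median 7.91). JAG1 lay between 5.01 and 9.41 CPM and DLL1 between 2.92 and 6.89 CPM. JAG2 stayed between 0.535 and 2.08 CPM. HEY2 was near the limit of detection with 2 to 39 counts per library. DLL4 had 0 counts in 8 libraries, which allows up to 0.0736 to 0.113 CPM of the library total (3 counts, counting error only), and 2 counts in each of the other two, so it was not detectable at this depth. The leukocyte marker PTPRC held 3487 to 4232 CPM, and the 10 endothelial markers summed to 59.6 to 67.9 CPM. Most of that sum was PECAM1, at 39.2 to 49.1 CPM. ERG reached 11.7 CPM and TIE1 10.2 CPM, and each of the other endothelial markers stayed at 3.40 CPM or less.

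**Figure D5:**
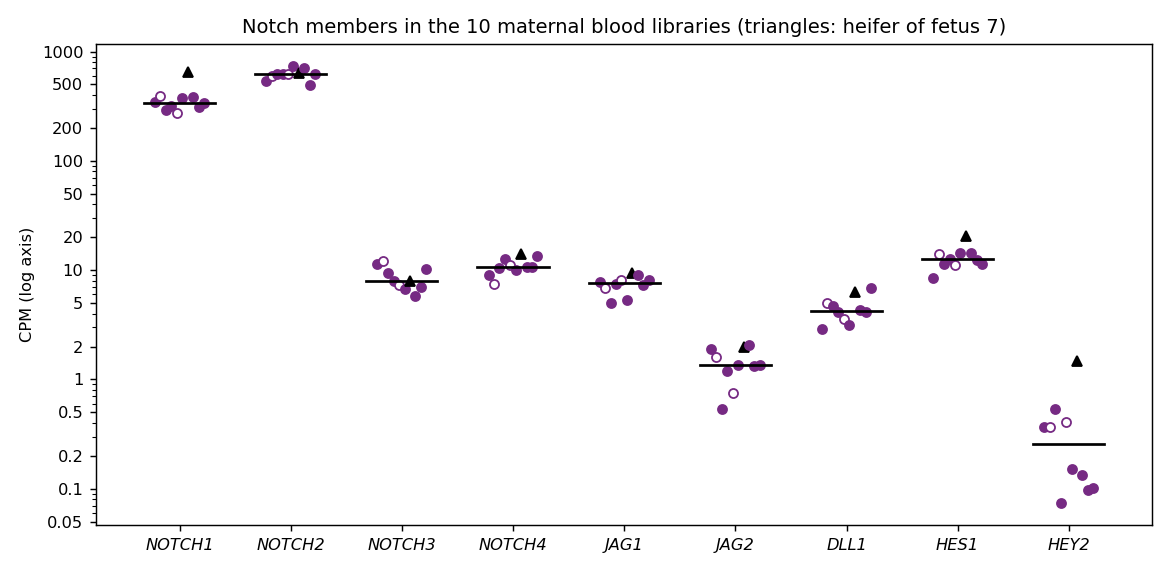
CPM of 9 members (log axis) in the 10 maternal blood libraries, in order of fetal weight, with black bars at the medians, the heifer of fetus 7 as a triangle, and those of fetuses 2 and 5 as open circles. DLL4, at 0 counts in 8 libraries, is not drawn. The triangle is at 653 CPM for NOTCH1, where the next highest library has 393 CPM.

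The blood of the heifer of fetus 7 had the highest level of NOTCH1, NOTCH4, JAG1, HES1 and HEY2. In the same library ITGAM, one of the leukocyte markers, peaked at 647 CPM, with a median of 299 CPM in blood. The other leukocyte markers were not compared by library, and the part of the mix of blood cells in these levels was not tested. For HES1 it held 20.5 CPM, with 14.4 CPM in the next library, and for HEY2 1.47 CPM with 0.535 CPM in the next. No blood member was called with weight or transfer group, either with all 10 libraries or without the heifers of fetuses 2 and 5.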

How the data were processed

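RNA-seq was analysed in 36 libraries of bovine heart, gonads, liver and maternal blood, grouped by tissue, transfer group and animal as the labels give them. The authors trimmed reads with Trimmomatic, mapped them with STAR (2.7.0b) to ARS-UCD1.3, counted reads per gene with featureCounts (Subread 2.0.3) and deposited whole-number counts for 35092 genes. Options for strand, multi-mapping reads and read pairs are not stated in the sources used here. Even numbers made up 83.8% to 87.9% of blood counts of 1 to 20 and 47.2% to 77.3% of organ counts, so counts may not be independent molecules, and floors cover counting error only. In the table of RefSeq genes used for names (ARS-UCD2.0, 31630 identifiers matched), NOTCH2 and JAG1 each overlap another gene, so their reads are uncertain. No sequence is printed.

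Library sizes were scaled with edgeR (4.0.16) TMM. Organ contrasts used 1 quasi-likelihood fit over genes with at least 1 count in the 26 organ libraries. Weight and transfer group were fitted per tissue over genes with at least 10 counts in 4 libraries. Correlations used log2 CPM with a prior count of 2 and exact permutations, or 100000 permutations for 10 animals, two-sided. P-values were adjusted by Benjamini-Hochberg. The tests were checked on simulated counts. Alternatives were DESeq2 (1.42.0), TMM without mitochondrial genes, other filters, a linear term, leaving out each library, and the animal as a replicate block. Library totals and choices on samples, tissue scaling and blood depth were added after seeing the data. Libraries of the same number come from the same animal. Their deviations from the organ mean, over 14786 genes, had a median correlation of 0.10 between heart and gonads, 0.02 between heart and liver and 0.03 between gonads and liver, and −0.02, −0.00414 and −0.00669 between different animals.

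The 10 members and all lists were chosen with earlier results of these data known. All members are named. Of the other pathway genes, the 3 with the largest change in each direction of each organ contrast are named by rule, and RBPJ, DTX3L, HES6, MAML3 and the genes that did not overlap between groups were chosen after their values were seen. Of 106 marker genes listed, 2 were not matched. Markers picked from their lists to describe the libraries were GATA4, DDX4, DAZL, WT1, CLDN11, KIT, PAX2, CDH16, TNNT2, MYL2, ACTC1, SOX17, PECAM1, ERG, TIE1, PTPRC and ITGAM. Those named by their order in the organs were picked in the same way. Whether libraries of 1 tissue were handled in batches is not given in the sources used here.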

Additional observations from a re-analysis of the deposited data

Results flagged for a closer look

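Of 39 sets of values, 1 for each member and tissue tested, 5 held a library farther from the others than Dixon's 95% limit allows. About 1 in 20 sets exceeds that limit by chance only where values are normal and sets independent. CPM need not be normal and members share libraries, so the 5 cannot be set against that rate. In maternal blood, the heifer of fetus 7 stood apart for NOTCH1 (653 CPM, next 393 CPM), HES1 (20.5 CPM, next 14.4 CPM) and HEY2 (1.47 CPM, next 0.535 CPM). In the liver, fetus 8 stood apart for NOTCH4 (25.3 CPM, next 17.3 CPM) and fetus 4 for HEY2 (7.20 CPM, next 3.47 CPM). The liver of fetus 4 is one of the 3 with raised MYL2 and ACTC1.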

How the results depend on the processing

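With the animal as a replicate block, 9 members were called between heart and gonads, 10 between heart and liver and 9 between gonads and liver, the one lost being DLL4 (−0.43, adjusted p = 0.130, edgeR). Of all 25095 genes, 10465, 12273 and 13409 were called in these comparisons with the block. The pairing changed no other call. With library totals in place of TMM, chosen after seeing the data, 2 members instead of 7 were highest in the heart and 4 instead of 2 in the gonads. The matching share of all genes was not computed for library totals. JAG2 (−0.28) and HES1 (−0.51) reversed for heart over gonads, and NOTCH4 (0.58) and DLL4 (0.59) for gonads over liver. The median of all genes also moved, as it does under any change of scaling, and the cause of the reversals was not tested. DESeq2 called 1 member between transfer groups in the liver, and 2 were called there without fetuses 3, 4 and 5. Leaving out each library gave 0 to 1 members called between transfer groups in the gonads (DLL4 without fetus 1). Leaving out each library called 9 to 10 members between heart and gonads, 10 between heart and liver and 9 to 10 between gonads and liver. The matching shares of all genes in these refits are not given here. The pairs of members past the threshold by Pearson's r, 1 of 15, were 2 with library totals and 0 without the 2 farthest fetuses. No other count of members or relations moved by over 1.5 times. Over all genes, the number called between transfer groups in the gonads fell from 63 to 6 with TMM without mitochondrial genes and to 3 with no filter, and DESeq2 gave 940. In the heart DESeq2 gave 2155 against 8, library totals gave 2, and in the liver DESeq2 gave 1520 against 688, no filter gave 441, and 2957 were called without fetuses 3, 4 and 5. Library totals gave 29 in the gonads. For weight, DESeq2 called 535 heart, 1358 gonad, 1765 liver and 487 blood genes, against 0, 0, 301 and 21 by edgeR, library totals called 974 liver genes, and a linear term 1100 heart, 371 liver and 0 blood genes. A linear term with the transfer group called 0 genes in every tissue, and leaving out the heifers of fetuses 2 and 5 called 0 blood genes. Between transfer groups in blood, DESeq2 called 65 genes against 0. Members with few counts (HEY2, JAG2 and DLL4 in blood) are limited by depth.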
